A study of Rattus norvegicus with 20 samples.

Results

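Heat shock and chaperone genes were followed in mesenteric arteries of rats given estrogens or selective estrogen receptor modulators (SERMs). The members were all probes whose single gene symbol in the platform annotation was Hspb1, Cryab, Hspb6, Hspb8, Hspa8, Hsph1, Dnajb1, Hsp90aa1, Hspa5 or Unc45a. Of these 10 symbols, 9 had such a probe, giving 11 of the 35129 probes on the array. Hsp90aa1 had no probe with a single symbol and is not analysed here. Hspb8 and Unc45a had 2 probes each, and the other genes had 1.

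Molecular chaperones bind unfolded or damaged proteins and keep them from aggregating. Small heat shock proteins hold such clients without using ATP, HSP70 and HSP90 machines refold them with ATP and with cochaperones, and BiP does the same work inside the endoplasmic reticulum. In arteries the small heat shock proteins are abundant in smooth muscle, where Hspb1 and Hspb6 are known for their phosphorylation and their link to actin and contractile tone, and several steroid receptors mature in complexes with HSP70 and HSP90.

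Single-colour CodeLink whole-genome arrays were hybridised with RNA from individual female Sprague Dawley rats, 1 array per rat and 20 in all. Every rat, controls included, had its ovaries removed before puberty at 4 weeks of age, recovered for 2 weeks, was gavaged daily for 3 weeks and was 9 weeks old when the arteries were taken and cleared of veins and fat. The groups received vehicle (20% 2-hydroxypropyl-β-cyclodextrin, 4 rats), ethinyl estradiol (3), estradiol benzoate (3) or equilin (3), each at 0.15 mg/kg, or tamoxifen (4) or raloxifene (3), each at 3 mg/kg. The design asks how these compounds alter arterial gene expression. A level is given as the deposited intensity, a linear value in arbitrary units scaled so that each array has a median near 1, and it is compared between arrays of 1 probe only. A difference is a log2 value ± standard error (SE) or with a 95% confidence interval, from the same fit in limma over all 20 arrays, and a probe passed, rose or fell where the Benjamini-Hochberg adjusted p over all 24562 probes tested was under 0.05. Groups are said not to overlap where all centred log2 values of 1 lay above all of the other.

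By their deposited medians the arrays formed 2 sets, a split absent from the labels. Vehicle array 1 and the 9 estrogen arrays had the higher medians and are called set A, and set B held vehicle arrays 2, 3 and 4 and the 7 SERM arrays. The estrogens can therefore be compared with each other, and tamoxifen with raloxifene, within 1 set, whereas estrogens and SERMs differ in set and dose and were not compared. Raloxifene array 3 stood apart: its correlation with the others averaged 0.841, against 0.919 to 0.959 for the rest. Of 8 arterial smooth muscle markers with a probe, the contractile genes Myh11, Tagln and Cnn1 were above the 99.2th percentile of mean brightness. Smtn lay at the 92.8th, with intensities from 0.258 to 53.8, and Lmod1 at the 82.0th. Mylk lay at the 67.8th, Acta2 at the 46.6th and Myocd at the 40.4th. Of 5 adipocyte marker probes, Adipoq, Fabp4, Cidec and Cfd lay between the 99.6th and the 99.9th percentile and Lep at the 34.2th, and their summed intensities were 523 to 881. In bulk RNA, fewer cells of a type and less RNA per cell cannot be told apart.

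All 11 member probes passed the filter on low values. Their mean log2 brightness lay between the 78.0th and the 99.8th percentile of all probes. The members were chosen by their differences from vehicle on these same arrays, among results already known, so those differences from vehicle are a description, with no p given. The treated arrays of those comparisons recur in the comparisons between compounds, and the p-values given there are no independent evidence for the choice of genes.

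Promoters of the members were read because heat shock factor 1 binds inverted repeats of a short unit, the heat shock element, and activates many of these genes. RefSeq windows of the GRCr8 assembly, from 250 bases before to 50 after the annotated gene start, were matched for 8 of the 10 members; Cryab and Hsp90aa1 were not in the table. The windows shown are those of Hspb1 (chr12:26432252-26432551, minus strand), Hspa8 (chr8:50080264-50080563, plus), Hsph1 (chr12:10427118-10427417, plus), Dnajb1 (chr19:41431092-41431391, minus) and Hspa5 (chr3:38452766-38453065, plus). They run 5′ to 3′ on the gene's strand and cover some cytosolic heat shock genes with element matches and, for contrast, the endoplasmic reticulum gene. The windows of Hspb6 and Hspb8, which also held matches, are not shown. Capitals mark the matches.
Hspb1: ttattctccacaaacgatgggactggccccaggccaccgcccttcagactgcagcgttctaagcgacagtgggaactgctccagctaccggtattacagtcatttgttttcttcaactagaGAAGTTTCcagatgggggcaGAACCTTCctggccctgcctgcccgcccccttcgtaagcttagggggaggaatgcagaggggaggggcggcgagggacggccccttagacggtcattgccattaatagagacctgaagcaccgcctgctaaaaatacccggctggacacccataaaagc
Hspa8: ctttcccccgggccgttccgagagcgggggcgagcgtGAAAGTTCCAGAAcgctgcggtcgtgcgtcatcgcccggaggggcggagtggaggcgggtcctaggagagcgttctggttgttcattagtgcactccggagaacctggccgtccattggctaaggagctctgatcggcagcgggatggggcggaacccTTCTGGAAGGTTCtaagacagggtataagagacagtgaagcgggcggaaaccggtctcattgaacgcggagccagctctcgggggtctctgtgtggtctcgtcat
Hsph1: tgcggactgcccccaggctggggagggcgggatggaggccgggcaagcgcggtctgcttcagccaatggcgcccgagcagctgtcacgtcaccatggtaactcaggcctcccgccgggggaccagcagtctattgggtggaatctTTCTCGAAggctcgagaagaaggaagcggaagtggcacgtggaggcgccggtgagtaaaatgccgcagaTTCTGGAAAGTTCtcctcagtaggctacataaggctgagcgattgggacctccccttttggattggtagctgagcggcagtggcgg
Dnajb1: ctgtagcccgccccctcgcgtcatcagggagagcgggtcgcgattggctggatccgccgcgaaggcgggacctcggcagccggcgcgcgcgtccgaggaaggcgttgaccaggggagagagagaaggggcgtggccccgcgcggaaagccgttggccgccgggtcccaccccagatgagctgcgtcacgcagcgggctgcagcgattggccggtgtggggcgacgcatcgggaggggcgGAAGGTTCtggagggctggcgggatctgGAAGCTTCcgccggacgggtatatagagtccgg
Hspa5: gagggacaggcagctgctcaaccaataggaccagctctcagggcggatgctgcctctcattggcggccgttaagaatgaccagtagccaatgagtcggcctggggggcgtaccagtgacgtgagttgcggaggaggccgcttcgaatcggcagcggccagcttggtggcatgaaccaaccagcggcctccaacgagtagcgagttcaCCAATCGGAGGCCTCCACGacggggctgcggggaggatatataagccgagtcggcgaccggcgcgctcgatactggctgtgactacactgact
The 2-unit elements GAANNTTC and TTCNNGAA and the 3-unit element, in which GAA, TTC and GAA follow one another with 2 bases between units, were searched on both strands, and a 3-unit match contains 1 match of each 2-unit form. The 3-unit element was found in 0.798% of 33469 promoters and in 2 members. Hspa8 held it at bases -213 to -201 and -55 to -43 from the gene start, and Hsph1 at -36 to -24. Either 2-unit form was found in 15.9% of promoters and in 6 members, Hspb1, Hspb6, Hspb8, Hspa8, Hsph1 and Dnajb1. Hspb1 carried GAANNTTC at -129 and -109, and Dnajb1 at -11 and at base 17 after the start. Hspa5 held no heat shock element in this window but held the endoplasmic reticulum stress element, CCAAT and CCACG with 9 bases between them, at -43 to -25, present in 0.0657% of promoters. The full estrogen response element, GGTCA and TGACC with 3 bases between them, was found in 0.0269% of promoters and in 0 members, and Unc45a (chr1:143705851-143706150, minus) held none of these elements.

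**Figure D1:**
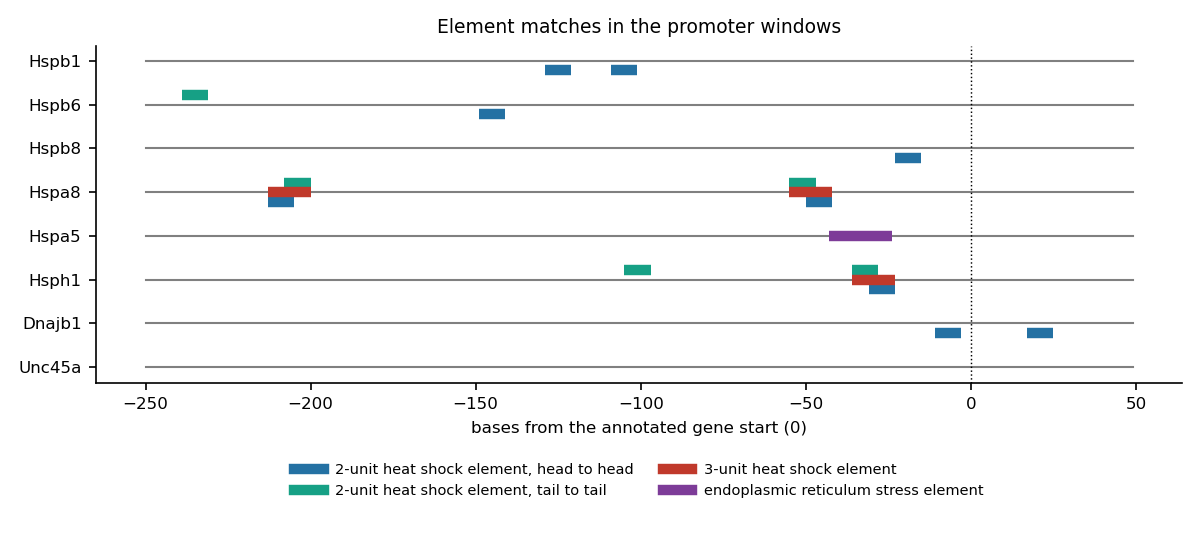
Positions of element matches in the promoter windows of 8 members, in bases from the annotated gene start on the horizontal axis and with 1 line per gene. The 3-unit heat shock element appears in Hspa8 and Hsph1, the endoplasmic reticulum stress element in Hspa5, and no match in Unc45a.

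Hspb1, also known as HSP25 or HSP27, is a small heat shock protein that binds actin filaments and is phosphorylated during smooth muscle contraction. Its deposited intensity on vehicle arrays 1 to 4 was 91.8, 92.1, 120 and 161. Ethinyl estradiol arrays read 217, 202 and 264, all above every vehicle array. Estradiol benzoate arrays read 57.1, 91.8 and 67.2, and equilin arrays 71.6, 59.1 and 58.9, so that both groups lay below the vehicle arrays after centring, by little in the case of estradiol benzoate array 2. Tamoxifen arrays were 145, 148, 141 and 129 and raloxifene arrays 131, 138 and 117, inside the vehicle range.

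Hspb1 differed from vehicle by 0.96 ± 0.20 (log2, SE) with ethinyl estradiol, -0.72 ± 0.20 with estradiol benzoate and -0.89 ± 0.20 with equilin. The differences were 0.32 (95% confidence interval -0.07 to 0.71) with tamoxifen and 0.19 (-0.23 to 0.61) with raloxifene. In the direct comparisons at the same dose, Hspb1 was 1.68 ± 0.21 higher with ethinyl estradiol than with estradiol benzoate (limma adjusted p = 0.00127) and 1.85 ± 0.21 higher than with equilin (limma adjusted p = 0.0012), with all 3 ethinyl estradiol arrays above all 6 of the others. Equilin and estradiol benzoate differed by -0.17 (-0.62 to 0.28). These comparisons share the ethinyl estradiol arrays. With only the compared groups in the fit, the limma adjusted p-values were 0.0997 and 0.059.

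Cryab encodes alpha B-crystallin, a small heat shock protein of muscle and lens that often assembles with Hspb1. Vehicle arrays read 11.5, 12.8, 22 and 22.7 and fell into a lower and a higher pair. Estradiol benzoate arrays read 8.54, 8.78 and 9.33 and equilin arrays 9.13, 6.15 and 8.14, all below the lowest vehicle array. Ethinyl estradiol arrays, at 22.3, 21.2 and 14.1, lay within the vehicle range and above every array of the other estrogens. Tamoxifen arrays read 17.0, 13.6, 18.1 and 19, and raloxifene arrays 17.5, 18 and 4.53.

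Cryab differed from vehicle by -0.93 ± 0.37 with estradiol benzoate, -1.13 ± 0.37 with equilin and 0.15 ± 0.37 with ethinyl estradiol. It was 1.08 ± 0.40 and 1.29 ± 0.40 higher with ethinyl estradiol than with estradiol benzoate and equilin, and neither difference passed (limma adjusted p = 0.371 and 0.253). The raloxifene value turned on array 3, since the difference from vehicle was -0.53 with it and 0.12 without it. Without that array the ethinyl estradiol to equilin difference passed, with a limma adjusted p of 0.0207. It did not pass with only the compared groups in the fit.

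Hspb6, or HSP20, is a small heat shock protein whose phosphorylated form accompanies relaxation of vascular smooth muscle. Its intensities were 43.2, 39.9, 43.9 and 49.1 on vehicle arrays and 65.3, 53.9 and 46 with ethinyl estradiol. Estradiol benzoate arrays read 32.4, 34 and 30.8 and equilin arrays 27.2, 29.9 and 33.4, below all vehicle and all ethinyl estradiol arrays. Tamoxifen arrays (32.7, 30.6, 43.7 and 36.6) and raloxifene arrays (27.5, 40.3 and 25) reached from the level of those groups into the vehicle range.

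The difference of Hspb6 between ethinyl estradiol and estradiol benzoate was 0.75 ± 0.19 (limma adjusted p = 0.131), and against equilin 0.86 ± 0.19 (limma adjusted p = 0.0811), so neither passed. Without raloxifene array 3, which lies in neither group but enters the common estimate of spread, the limma adjusted p-values were 0.0395 and 0.0196. Neither difference passed with only the compared groups in the fit. Differences from vehicle were 0.27 with ethinyl estradiol, -0.48 with estradiol benzoate, -0.59 with equilin, -0.30 with tamoxifen and -0.53 with raloxifene, each with an SE of 0.17 or 0.18.

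Hspb8, or HSP22, works with the cochaperone Bag3 in removing damaged proteins from muscle cells, and its probes showed smaller differences. Probe 57080 ranged from 11 to 18.6 on vehicle arrays and from 10.7 to 20.4 on treated arrays, and probe 131091 from 4.08 to 6.91 and from 3.55 to 7.88. Neither probe separated a treatment from vehicle. Between estrogens, the arrays of probe 131091 were lower with estradiol benzoate (4.72, 4.23 and 3.91) than with ethinyl estradiol (6.66, 4.81 and 6.57) or equilin (6.74, 6.68 and 5.42). The differences were 0.47 (-0.05 to 0.99) and, for equilin against estradiol benzoate, 0.54 (0.02 to 1.06), and neither passed, with limma adjusted p-values of 0.603 and 0.999. Probe 57080 gave 0.19 (-0.26 to 0.63) and 0.03 (-0.42 to 0.47) in the same comparisons, so the probes did not show 1 pattern.

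**Figure D2:**
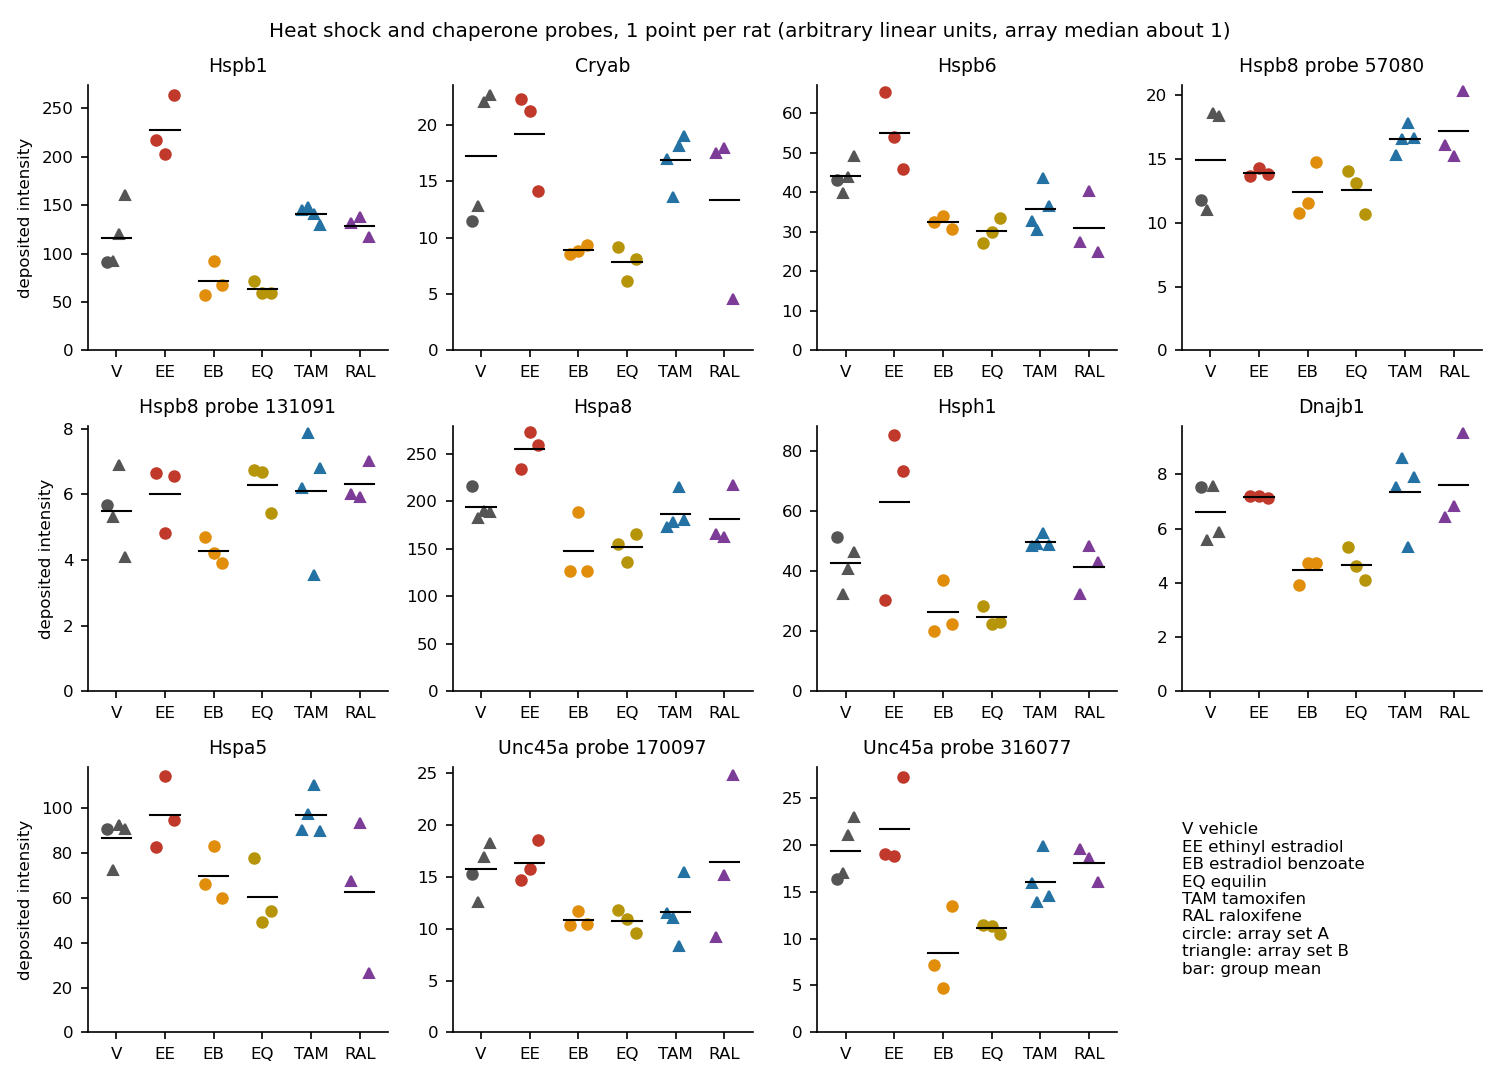
Deposited intensity (arbitrary linear units, vertical axes from 0) of the 11 member probes on each of the 20 arrays, by group; points are rats, circles array set A, triangles array set B, and bars group means. Ethinyl estradiol arrays of Hspb1 read 202 to 264 and the other estrogen arrays 57.1 to 91.8, and the vertical scale differs between panels.

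Hspa8 encodes HSC70, the constitutive HSP70 of the cytosol, which folds new proteins and loads client proteins onto HSP90. Vehicle arrays read 217, 182, 189 and 189 and ethinyl estradiol arrays 234, 273 and 259, the latter all higher. Estradiol benzoate arrays read 127, 189 and 127 and equilin arrays 155, 136 and 166, and after centring both groups lay below vehicle, with estradiol benzoate array 2 just under the lowest vehicle array. Tamoxifen arrays (173, 178, 215 and 180) and raloxifene arrays (165, 162 and 218) overlapped vehicle. Hspa8 was 0.82 ± 0.17 higher with ethinyl estradiol than with estradiol benzoate and 0.76 ± 0.17 higher than with equilin, without overlap. Neither difference passed (limma adjusted p = 0.0537 and 0.0868), and both passed without raloxifene array 3 (limma adjusted p = 0.00945 and 0.0157). Neither passed with only the compared groups in the fit.

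Hsph1, or HSP105, belongs to the HSP110 family, which exchanges nucleotide on HSP70. Vehicle arrays read 51.4, 32.4, 40.7 and 46.5, while the ethinyl estradiol arrays were 30.6, 85.4 and 73.3, 1 below and 2 above all vehicle arrays. Estradiol benzoate arrays read 20.3, 37.1 and 22.5 and equilin arrays 28.3, 22.6 and 23.1. Tamoxifen arrays lay close together at 48.6, 49.1, 52.8 and 48.8, and raloxifene arrays at 32.3, 48.6 and 43.2 overlapped vehicle. The difference between ethinyl estradiol and estradiol benzoate was 1.17 ± 0.31 (limma adjusted p = 0.145), and against equilin 1.24 ± 0.31 (limma adjusted p = 0.137). Without ethinyl estradiol array 1 these became 1.63 and 1.70 and passed, with limma adjusted p-values of 0.00942 and 0.0226. Neither passed with only the compared groups in the fit.

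Dnajb1, or HSP40, is a J-domain protein that delivers substrates to HSP70 and stimulates its ATPase. Intensities were 7.52, 5.56, 7.56 and 5.87 on vehicle arrays and 7.19, 7.21 and 7.14 with ethinyl estradiol. Estradiol benzoate arrays (3.92, 4.72 and 4.75) and equilin arrays (5.31, 4.61 and 4.11) lay below all of them. The differences from vehicle were -0.60 ± 0.19 and -0.53 ± 0.19, and ethinyl estradiol exceeded the other estrogens by 0.68 ± 0.20 and 0.62 ± 0.20, with limma adjusted p-values of 0.207 and 0.282. Tamoxifen arrays ran from 5.31 to 8.62 and raloxifene arrays from 6.43 to 9.52, overlapping vehicle.

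Hspa5 encodes BiP, the HSP70 of the endoplasmic reticulum and a standard readout of the unfolded protein response. It read 90.9, 72.5, 92.4 and 90.6 on vehicle arrays, 82.5, 114 and 94.7 with ethinyl estradiol, 66.1, 83 and 60.1 with estradiol benzoate and 78, 49.3 and 54.4 with equilin. The ethinyl estradiol arrays exceeded the equilin arrays, by 0.70 ± 0.32 (limma adjusted p = 0.495), and overlapped the estradiol benzoate arrays on the centred scale, with a difference of 0.48 (-0.18 to 1.15). Raloxifene arrays read 67.6, 93.2 and 26.6 against 90.2, 97.3, 110 and 90.0 with tamoxifen. The difference from vehicle with raloxifene was -0.63 with array 3 and -0.11 without it, and the tamoxifen to raloxifene difference was 0.80 ± 0.30 (limma adjusted p = 0.37) with it and 0.28 without it.

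Unc45a encodes a chaperone that folds myosin heads together with HSP90. Its probe 316077 read 16.3, 17.0, 21.1 and 22.9 on vehicle arrays, 19, 18.8 and 27.2 with ethinyl estradiol, 7.21, 4.77 and 13.4 with estradiol benzoate and 11.5, 11.3 and 10.5 with equilin. The last 2 groups lay below every vehicle and ethinyl estradiol array. Probe 170097 gave 15.2, 12.5, 16.9 and 18.3 with vehicle, 14.7, 15.7 and 18.5 with ethinyl estradiol, 10.3, 11.7 and 10.4 with estradiol benzoate and 11.8, 11 and 9.53 with equilin, in the same order. Both probes thus separated the same groups, with smaller differences for probe 170097.

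For probe 316077 the differences from vehicle were -1.34 ± 0.26 with estradiol benzoate, -0.83 ± 0.26 with equilin and 0.12 ± 0.26 with ethinyl estradiol. For probe 170097 they were -0.57, -0.58 and 0.02, each ± 0.26. Ethinyl estradiol exceeded estradiol benzoate by 1.46 ± 0.28 for probe 316077, which passed (limma adjusted p = 0.0298), and by 0.59 ± 0.28 for probe 170097, which did not (limma adjusted p = 0.55). Leaving out ethinyl estradiol array 1 or 3, or estradiol benzoate array 1 or 2, or fitting only the compared groups, ended the call, and the difference of probe 316077 then lay between 1.12 and 1.55. Tamoxifen arrays of probe 316077 read 15.9, 13.9, 19.9 and 14.5 and raloxifene arrays 19.5, 18.6 and 16. On probe 170097, raloxifene arrays spread from 9.17 to 24.8, with array 3 the highest.

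Counted together, the members were mostly lower with estradiol benzoate and equilin and not with ethinyl estradiol. With ethinyl estradiol 1 of 11 probes, Hspb1, was called higher than vehicle, where 0.541% of all tested probes were called higher, and 2 did not overlap on the higher side, against 5.33% of all probes. With estradiol benzoate 1 probe, Unc45a 316077, was called lower (0.0651% of all probes), a call kept under 7 of 31 alternatives, and 7 did not overlap on the lower side (10.2%). With equilin 1, Hspb1, was called lower (1.94%), and 8 did not overlap on the lower side (22.5%). Tamoxifen (0.224%) and raloxifene (2.04%) gave 0 calls by limma in either direction, with 0 and 2 members at an unadjusted p under 0.05 against 8.97% and 27.6% of all probes. Both Hspb1 calls were kept under 22 of 31 alternatives. Nothing is read from these shares, from the calls or from how many alternatives kept them, since the members were chosen with such comparisons known.

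The median difference of the members from vehicle was 0.12 with ethinyl estradiol, -0.57 with estradiol benzoate and -0.58 with equilin, beside -0.05, -0.12 and -0.17 over all tested probes. For tamoxifen and raloxifene it was 0.12 and -0.04, beside -0.03 and -0.02. Quantile normalisation, which moves the median of all probes by more than 0.1 for estradiol benzoate and equilin, to 0.00 and -0.01, gave member medians of -0.35 and -0.29. These comparisons share the vehicle arrays, of which only array 1 lies in the array set of the estrogens. With the set as a block, which in effect sets the estrogens against that 1 array, Hspb1 differed from vehicle by 1.30 with ethinyl estradiol, -0.38 with estradiol benzoate and -0.55 with equilin, and 0 member probes were called.

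**Figure D3:**
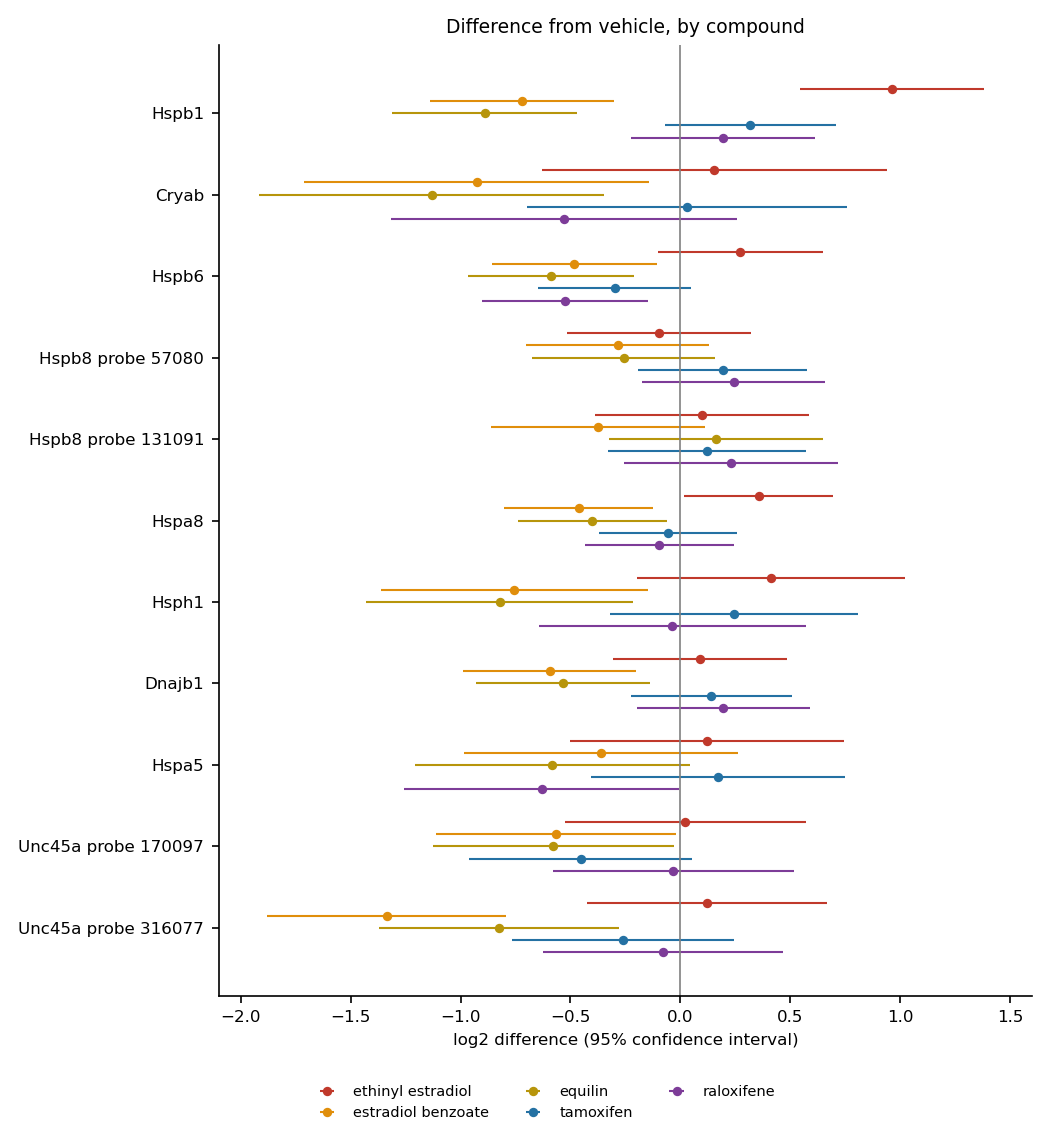
Log2 difference from vehicle of each member probe (horizontal axis) with its 95% confidence interval, coloured by compound. Estradiol benzoate and equilin lie to the left of 0 for 11 and 10 of the 11 probes, ethinyl estradiol to the right for 10, and all compounds share the 4 vehicle arrays.

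Compounds given at the same dose were compared in 4 pairs, with p-values adjusted over all probes within each pair. The estrogen pairs lay within array set A and the SERM pair within array set B. Ethinyl estradiol against estradiol benzoate gave 2 of 11 member probes called, both higher (0.167% of all probes), and 8 without overlap on the higher side (15.7%). Ethinyl estradiol against equilin gave 1 called higher (0.147%) and 9 without overlap (17.1%). The member medians were 0.75 and 0.76, beside 0.03 and 0.08 over all probes. Unadjusted p-values were under 0.05 for 8 and 9 members, against 9.04% and 9.61% of all probes. The members were chosen with the differences of these same arrays from vehicle known, so nothing is read from these counts and shares.

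Bright probes as a class shifted in the same direction by less. Among the 1731 probes above the 95th percentile of brightness, which include 5 members, the median difference was 0.20 between ethinyl estradiol and estradiol benzoate and 0.16 between ethinyl estradiol and equilin. Their 90th percentiles were 0.44 and 0.50, below the differences of Hspb1, Hspa8, Hsph1 and Hspb6.

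In structure, ethinyl estradiol carries an ethinyl group on the D ring of estradiol, estradiol benzoate a benzoate ester on the A ring, and equilin, an estrone-like steroid of horses, an additional double bond in the B ring. Between equilin and estradiol benzoate 0 member probes passed with limma, where 0% of all probes were called and 3.4% had an unadjusted p under 0.05, as had 1 member. Without overlap on the higher side was 1 probe, Hspb8 probe 131091, against 6.34% of all probes. For Hspb1, Hspb6, Hspa8 and Dnajb1 the differences of equilin from estradiol benzoate were -0.17, -0.11, 0.06 and 0.06, with 95% confidence intervals that reached no further than -0.62 and 0.48. For Cryab (-1.04 to 0.64), Hsph1 (-0.72 to 0.58) and Unc45a probe 316077 (-0.07 to 1.09) the intervals allow larger differences.

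Tamoxifen and raloxifene, SERMs given at the same dose and run within array set B, gave 0 called member probes with limma (0.00407% of all probes) and 1 at an unadjusted p under 0.05 (13.4% of all probes), Hspa5. The median difference of tamoxifen from raloxifene was 0.04, and -0.02 over all probes. The Hspb1 difference was 0.12 (-0.30 to 0.54) and that of Hspa8 0.04 (-0.30 to 0.38). These intervals do not include the differences of 1.68 and 0.82 found between ethinyl estradiol and estradiol benzoate. Those come from another dose and array set and have their own errors, and the pairs were not tested against each other.

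**Figure D4:**
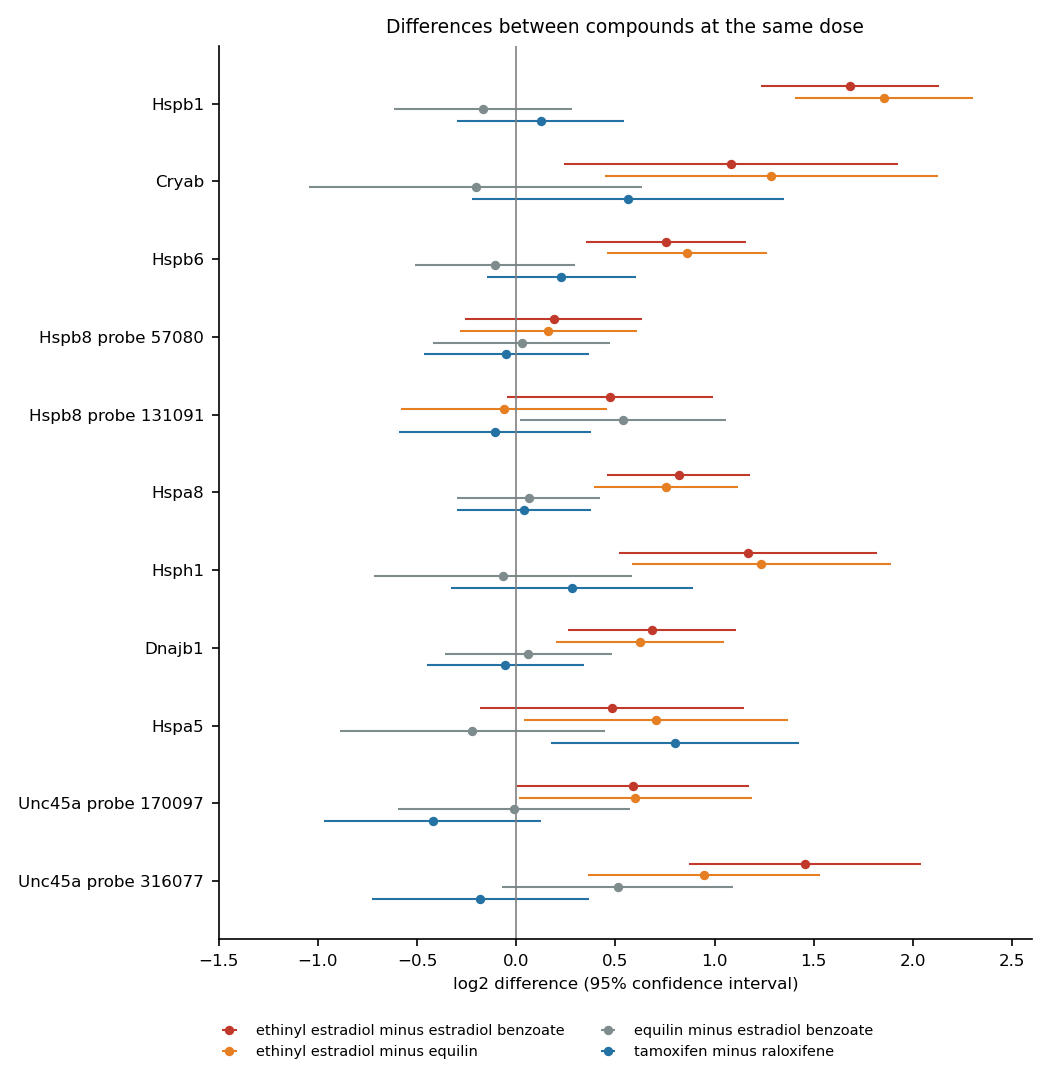
Log2 differences between compounds given at the same dose (horizontal axis) with 95% confidence intervals for the 11 member probes. The ethinyl estradiol comparisons of Hspb1 stand at 1.68 and 1.85, the equilin to estradiol benzoate and tamoxifen to raloxifene intervals of that probe include 0, and both ethinyl estradiol comparisons share the same 3 arrays.

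Other genes of the chaperone network were read from 9 lists, of whose 128 genes 105 were tested by their brightest probe. Ethinyl estradiol against estradiol benzoate gave 2 that rose (0.167% of all probes) and 0 that fell (0.114%). Of the differences 72 lay above 0, with a median of 0.15, beside 0.03 over all probes. Against equilin 0 passed in either direction (0.175% of all probes), 79 lay above 0 and the median was 0.23, beside 0.08. The lists were chosen with earlier results of these data known, and these counts are a description.

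The HSP90 machine held both genes that rose. Of 20 genes of the HSP90 family and its cochaperones 19 were tested, and 15 were higher with ethinyl estradiol than with estradiol benzoate, with a median of 0.36. Hsp90ab1, the constitutive cytosolic HSP90, read 95.4, 105 and 104 with ethinyl estradiol and 51.6, 54.7 and 45.9 with estradiol benzoate, with 91.2, 66.4, 86.8 and 63.4 on vehicle arrays. All ethinyl estradiol arrays exceeded all others of the estrogen and vehicle groups, and the difference from estradiol benzoate was 1.0 ± 0.18 (limma adjusted p = 0.0218). That call was lost on leaving out any 1 of the 6 arrays compared, under quantile normalisation (0.78) and with only the compared groups in the fit.

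Fkbp5, a cochaperone of steroid receptor complexes that is known as a target of glucocorticoid, androgen and progesterone receptors, read 19.4, 15.7 and 10.3 with ethinyl estradiol and 3.99, 4.72 and 3.53 with estradiol benzoate, a difference of 1.83 ± 0.31 (limma adjusted p = 0.0145). It was between 8.32 and 10.4 on vehicle arrays, between 4.07 and 7.61 with equilin and between 16.4 and 28.2 with tamoxifen, whose 4 arrays were above all vehicle arrays by 1.10 ± 0.27 without passing (limma adjusted p = 0.139). The call between the estrogens was lost without ethinyl estradiol array 1 or estradiol benzoate array 1 or 3, and with only the compared groups in the fit.

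Other HSP90 cochaperones lay in the same direction without passing. Ahsa1, which activates the HSP90 ATPase, read 31.8, 34.9 and 32 with ethinyl estradiol, 18, 22.5 and 18.5 with estradiol benzoate and 19.5, 17.6 and 16.4 with equilin, differences of 0.75 ± 0.18 and 0.89 ± 0.18 (limma adjusted p = 0.112 and 0.0539). Stip1, which bridges HSP70 and HSP90, was 0.94 ± 0.27 and 0.97 ± 0.27 higher with ethinyl estradiol (limma adjusted p = 0.205 and 0.198). Hsf1, the main heat shock transcription factor, differed by -0.07 ± 0.22 and 0.24 ± 0.22 in the same comparisons, and Hspa4, of the HSP110 family, by -0.05 ± 0.51 and 0.17 ± 0.51. The mitochondrial chaperones Hspe1 and Hspd1 differed by 0.62 ± 0.21 and 0.44 ± 0.21, and by 0.21 ± 0.37 and 0.16 ± 0.37. Bag3 gave 0.83 ± 0.64 and 1.51 ± 0.64, and Fkbp4 0.68 ± 0.52 and 0.35 ± 0.52. The immediate early genes Fos and Egr1 gave -0.36 ± 0.53 and 1.38 ± 0.53, and 0.23 ± 0.37 and 1.39 ± 0.37. None of these passed.

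In the other 8 lists 0 genes passed between ethinyl estradiol and either other estrogen. The 3 tested small heat shock proteins outside the members all lay above 0 in both comparisons, with medians of 0.38 against estradiol benzoate and 0.61 against equilin, where the HSP90 list had 0.36 and 0.30. For 10 genes of the cytosolic chaperonin, which folds actin and tubulin, and of prefoldin, the medians were 0.14 and 0.41, with 8 and 7 above 0. The 8 tested genes of the HSP70 and HSP110 family had medians of 0.000286 and 0.12, and the 9 BAG and nucleotide exchange genes 0.09 and 0.12. The 4 genes listed with the heat shock factors, Hsf1, Hsf2, Hsf4 and the binding protein Hsbp1, had -0.02 and 0.19. Of 28 tested genes of the endoplasmic reticulum and the unfolded protein response 16 were above 0 against estradiol benzoate and 18 against equilin, with medians of 0.04 and 0.12. Of 7 mitochondrial chaperones 6 were above 0 in each comparison, with medians of 0.21 and 0.25, and of 17 J-domain proteins 13 and 14, with medians of 0.13 and 0.29. In these lists the members Hspa5 and Dnajb1 are not counted. Against vehicle, 1 gene of the 105 passed, with raloxifene, where 2.04% of all tested probes were called in either direction. Hyou1, an HSP110-type chaperone of the endoplasmic reticulum, read 7.41, 9.48 and 1.39 with raloxifene and 14.7, 14.1, 12.8 and 15.8 with vehicle, a difference of -1.59 ± 0.40 (limma adjusted p = 0.0478). Without raloxifene array 3 it was -0.76 and did not pass.

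**Figure D5:**
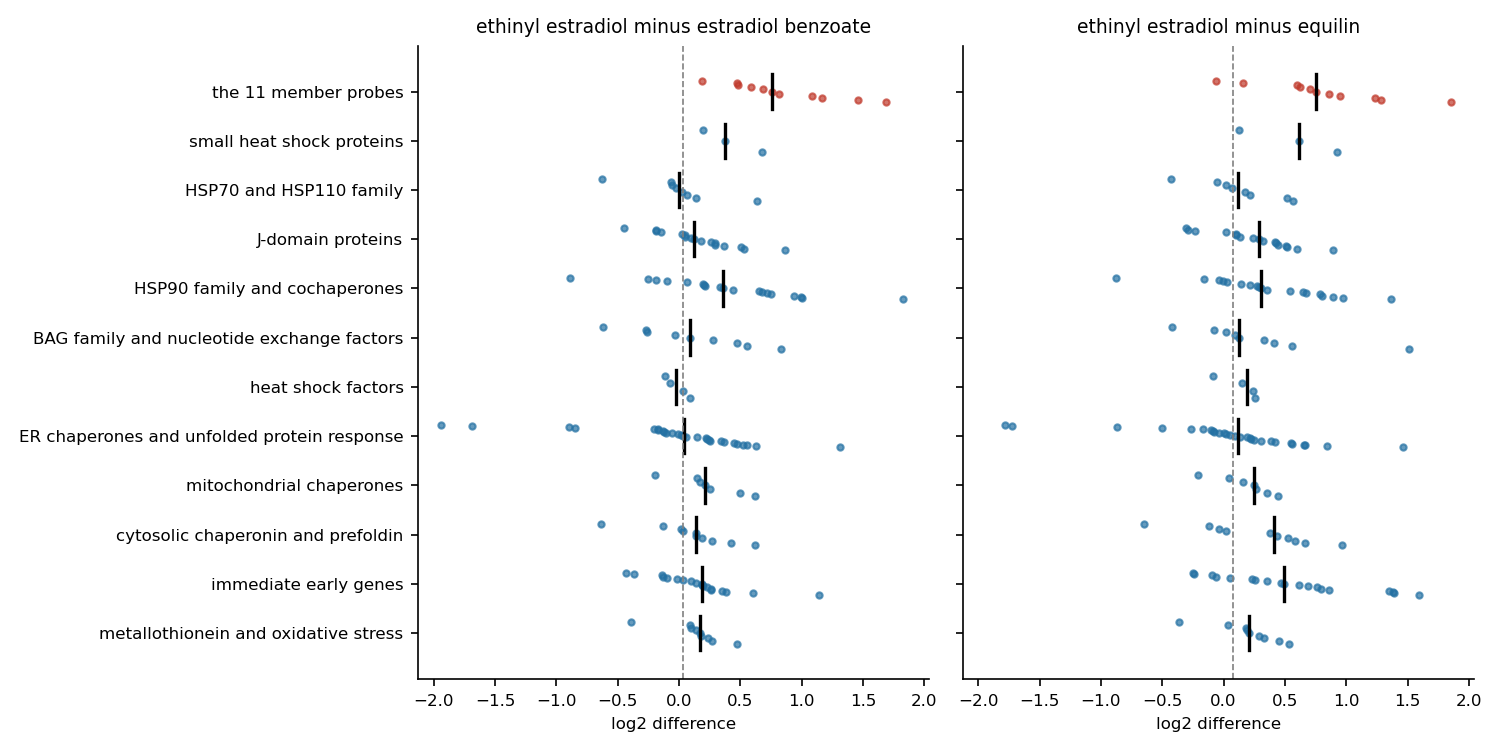
Log2 differences of ethinyl estradiol from estradiol benzoate (left) and from equilin (right) for the 11 member probes and for the tested genes of 11 lists, 1 point per gene or probe. Black bars are medians, 0.75 and 0.76 for the members, and the dashed line is the median of all tested probes, 0.03 and 0.08.

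Among the estrogens, smooth muscle markers lay in the order of most members, with ethinyl estradiol highest. Over 8 of 9 markers with a probe, the mean log2 level was 3.54 to 3.92 on vehicle arrays, 3.91 to 4.21 with ethinyl estradiol, 3.36 to 3.49 with estradiol benzoate, 3.35 to 3.42 with equilin, 2.82 to 3.80 with tamoxifen and 3.89 to 4.00 with raloxifene. The summed intensity was 671 to 865, 817 to 912, 493 to 652, 588 to 675, 484 to 645 and 603 to 827 in the same order. Their part in the chaperone differences was not tested. The tamoxifen arrays all summed below the lowest vehicle array, and all 11 member probes overlapped between these groups. Their tamoxifen differences from vehicle ran from -0.45 for Unc45a probe 170097 and -0.30 for Hspb6 to 0.32 for Hspb1. With raloxifene the mean marker levels overlapped only the upper part of the vehicle range. The median member difference from vehicle was -0.04 there, with 4 of 11 probes above 0.

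Markers of other tissues were summed in the same way. Pancreatic acinar markers were highest on ethinyl estradiol array 3, with a summed intensity of 772 over 7 probes. The other ethinyl estradiol arrays had 4.50 and 3.67. The sums were 9.85 to 116 with vehicle, where array 1 was highest, 5.65 to 14.7 with estradiol benzoate and 6.68 to 10.4 with equilin. They were 19.9 to 127 with tamoxifen and 2.41 to 24.9 with raloxifene. Without ethinyl estradiol array 3 the Hspb1 differences from estradiol benzoate and equilin were 1.57 and 1.74. The mean log2 level of 7 skeletal muscle markers was 0.636 to 0.770 with ethinyl estradiol, 0.521 to 0.635 with estradiol benzoate, 0.304 to 0.608 with equilin, 0.663 to 0.992 with vehicle, 0.229 to 0.706 with tamoxifen and 0.706 to 1.13 with raloxifene. All ethinyl estradiol arrays thus lay above all arrays of the other estrogens, narrowly for estradiol benzoate, which is the order of most members, and the part of these markers in the chaperone differences was not tested. Their summed intensities overlapped, at 27.6 to 38.9, 27.9 to 32.2, 26.2 to 30.4, 30.3 to 43.4, 16.3 to 33.8 and 30.9 to 54.7 in the same order of groups. Adipocyte markers summed to 523 to 812, 640 to 782, 804 to 881, 596 to 863, 583 to 791 and 594 to 612. The mean log2 level of 19 immediate early genes, which respond to handling and stress, was 2.52 to 2.77 with ethinyl estradiol, 2.28 to 2.86 with estradiol benzoate, 1.84 to 2.41 with equilin and 2.20 to 2.89 with vehicle. Of these genes Dusp1, a MAP kinase phosphatase, was the 1 that passed in a comparison with vehicle, at -1.13 ± 0.28 with equilin (limma adjusted p = 0.032). In that comparison 3.69% of all tested probes were called in either direction.

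The genes whose pattern was most like that of each member were found among 10182 genes by Pearson's r over the 20 arrays, after the mean of each array set was removed. For Hspb1 they were Ahsa1 (r = 0.892), Slmap (0.873) and Fmo2 (0.850), and for Hspa8 Coasy (0.856), Rasl11b (0.851) and Ccdc47 (0.839). For Hsph1 they were Hikeshi (0.830), the carrier that brings HSP70 into the nucleus, Ier3 (0.785) and Coasy (0.770). For Hsph1 and Hikeshi r was 0.904 in set A, which holds the estrogen arrays and vehicle array 1, and 0.280 in set B. Ier3 and Coasy gave 0.901 and 0.942 with Hsph1 in set A, and 0.141 and 0.0904 in set B. For Hspb1 with Ahsa1, Slmap and Fmo2 r was 0.973, 0.945 and 0.908 in set A, and 0.620, 0.759 and 0.504 in set B. For Hspa8 with Coasy, Rasl11b and Ccdc47 r was 0.914, 0.945 and 0.863 in set A, and 0.730, 0.475 and 0.739 in set B.

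Cryab was most like Arhgap25 (0.958), Csrp2 (0.930), a LIM protein of smooth muscle, and Avpr1a (0.930), a vasopressin receptor. Hspb6 was most like Ilk (0.934), Cpe (0.932) and Smarcd3 (0.931), and Dnajb1 like Arid5a (0.856), C1h15orf40 (0.811) and Mcam (0.806). Hspa5 was most like Tmeff2 (0.928), Ddx27 (0.926) and Bag3 (0.925), which were 0.828, 0.828 and 0.812 without raloxifene array 3. Hspb8 was most like Mvk (0.898), Chkb (0.896) and Ints11 (0.893), and Unc45a like Zfp287 (0.875), Mib2 (0.850) and Aggf1 (0.830). The arrays share groups and scaling, so that these values describe likeness over groups as well as over rats.

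Covariation within groups was examined for a few pairs of members. After group means were removed, 5 pairs of members were tested over the 20 arrays by permutation with 100000 resamples. Hspb1 and Cryab gave r = 0.387 (two-sided permutation p = 0.0933, adjusted over the 5 pairs 0.467) and rho = 0.442 (permutation p = 0.0524, adjusted 0.262), with r = 0.198 in set A, 0.518 in set B and 0.364 without the 2 arrays farthest from the median of Hspb1. Hsph1 and Dnajb1 gave r = 0.215 (permutation p = 0.364, adjusted 0.798) and rho = 0.316 (permutation p = 0.175, adjusted 0.424), with 0.389 in set A, 0.141 in set B and 0.30 without the 2 farthest arrays. Hspa8 and Dnajb1 gave r = 0.161 (permutation p = 0.499, adjusted 0.798) and rho = 0.266 (permutation p = 0.256, adjusted 0.424), Hspb6 and Hspb8 r = -0.06 (permutation p = 0.798, adjusted 0.798) and rho = -0.04 (permutation p = 0.875, adjusted 0.875), and Hspa5 and Hspa8 r = -0.10 (permutation p = 0.663, adjusted 0.798) and rho = 0.226 (permutation p = 0.339, adjusted 0.424). The sign of r for the last 3 pairs depended on the arrays used, and 0 of the 5 pairs passed.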

How the data were processed

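RNA from individual rats was hybridised to single-colour arrays, 1 array per rat. The authors' deposited values are linear intensities, background-subtracted and scaled to a median near 1, as the values show. Slides were read with GenePix Pro 5.0, and Acuity 3.1 and GeneSpring 7.1 are named, per the submitters' design text; which program made the values was not given in the sources used here.

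Negative values were raised to 0, and the log2 of the deposited intensities plus an offset of 0.103 was centred on each array's median. After 40 probes with missing values and the lowest 30% by mean were left out, 24562 of 35129 probes were tested. All 6 groups, with 1 mean each, entered 1 linear model in limma 3.58.1 in R 4.3.3, with Benjamini-Hochberg adjustment over all probes tested. The offset understates differences of dim probes, and the number of arrays limits the precision. Probe genes came from the platform's annotation, which gives 1 symbol for 16865 probes, several for 165 and none for 18099. Scripts were tested on simulated data.

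The members, gene lists and tests were chosen with earlier results of these data known. All member probes are described. From the lists, members that passed are named (up to 4 a list and comparison), with 14 fixed genes, and for each member the 3 most similar genes. Hsp90b1, Hspa1a, Hspa1b and Dnaja1 had no tested probe with a single symbol and are not analysed here. Ahsa1 values and the bright-probe class were added after values were seen. Chordc1 is named outside these rules. Alternatives covered normalisation, offset, filter, array set, unnamed regularly spaced probes, replicate number, the groups fitted and each array left out. Replicate numbers do not pair the rats.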

Additional observations from a re-analysis of the deposited data

Results flagged for a closer look

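In the groups of 4 arrays, 22 sets of member values were examined, and a lone array stood apart in 2 of them, where chance gives about 1 in 20 groups, or 1.1. Hspa8 on tamoxifen array 3 was 7.595 on the centred log2 scale, while the other tamoxifen arrays lay between 7.28 and 7.33. Hsph1 on the same array was 5.568, while the other tamoxifen arrays lay between 5.45 and 5.46. The cause was not tested.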

How the results depend on the processing

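Among the member calls, those of Hspb1 between estrogens were kept under the most alternatives. Across 31 alternatives, 0 of the 99 member values changed sign while called. Only 6 of the 99 were called in the main fit, and sign changes of values called in neither fit were not counted. The Hspb1 differences of ethinyl estradiol from estradiol benzoate and equilin were called under all but 1 alternative, the fit of only the compared groups, where 0 of the 2 and 0 of the 1 member probes remained called. Under the other alternatives Hspb1 differed by 1.37 to 1.87 and by 1.56 to 1.95. The 1 member call of each of ethinyl estradiol, estradiol benzoate and equilin against vehicle became 0 under quantile normalisation, with the array set as a block, with that block and the regularly spaced probes left out (added after seeing the data), with only the compared groups, and with replicate number as a block. The estradiol benzoate call also became 0 with an offset of 0.03 times the median, with the lowest 50% of probes left out, and without the regularly spaced probes.

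Leaving out each array in turn gave 0 to 1 member calls for ethinyl estradiol and for estradiol benzoate against vehicle, 0 to 6 for equilin, 0 to 2 for raloxifene, 1 to 4 for ethinyl estradiol against estradiol benzoate and 1 to 4 against equilin, and 0 to 0 for tamoxifen against vehicle and the other pairs. The highest counts for equilin and the estrogen pairs came without raloxifene array 3, and for raloxifene without array 2. The Hspb1 call of ethinyl estradiol against vehicle was lost without vehicle array 2 or 3 or ethinyl estradiol array 1 or 3, and that of equilin without vehicle array 3 or 4 or equilin array 2 or 3. Calls over all probes moved likewise, from 295 to between 74 and 743 for ethinyl estradiol, from 172 to between 0 and 357 for estradiol benzoate, from 906 to between 0 and 3069 for equilin, from 55 to between 18 and 166 for tamoxifen, and from 502 to between 5 and 3774 for raloxifene. With only the compared groups in the fit these counts were 9 for ethinyl estradiol, 130 for equilin and 0 for raloxifene, and 0 for ethinyl estradiol against each other estrogen, where the main counts were 69 and 43. The cause was not tested.

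Same-numbered arrays of different groups did not deviate together: over 46 such pairs r ran from -0.43 to 0.30, with 10 over 0.1, so the replicate block rests on shared numbers alone; under it the member calls against vehicle were 0, and the Hspb1 differences between estrogens kept their calls. The within-group correlation of Hspb6 and Hspb8 (-0.06) was 0.0494 in set B and 0.0427 without raloxifene array 3. That of Hspa8 and Dnajb1 (0.161) was -0.13 without the 2 farthest arrays and -0.00868 without raloxifene array 3. That of Hspa5 and Hspa8 (-0.10) was 0.67 in set A, -0.64 in set B, 0.56 without the 2 farthest arrays and 0.27 without raloxifene array 3.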

Other observations

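Genes outside the members with the 3-unit heat shock element in the promoter gave no common direction between estrogens. Among 38 such genes with a tested probe, a list chosen after values were seen, 19 were higher with ethinyl estradiol than with estradiol benzoate, with a median log2 difference of -0.01, beside 0.02 over 8445 genes with a promoter. Limma called 0 of them in either direction there. Against equilin 22 were higher, with a median of 0.16 beside 0.11, and 0 were called. With equilin against vehicle 0 rose and 2 fell, where 37 rose and 197 fell of the 8445. Of the 38, 12 lay above vehicle with estradiol benzoate (31.6%) and 13 with equilin (34.2%). Beside these stood 24.7% and 24.6% of the 8445, so most genes were lower in both sets.

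The sulfiredoxin gene Srxn1, an oxidative stress gene, was among 9 tested genes of the metallothionein and oxidative stress list and was the 1 that passed in any comparison. It was lower with raloxifene (0.454, 0.695 and 0.243) than with vehicle (0.986, 0.992, 1.0 and 0.758). The difference was -0.93 ± 0.22 (limma adjusted p = 0.0416), in a comparison where 2.04% of all tested probes were called. Without raloxifene array 3 it was -0.62 and did not pass. Bag3, the partner of Hspb8, read 2.18 on that array and 26.9 and 28.4 on the other raloxifene arrays. Hspd1 and Chordc1 read 12.4 and 1.04 there, each below every other array of its probe.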
